A study of Mus musculus with 8 samples.

Results

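The immediate early response genes examined here were Fos, Fosb, Jun, Junb, Egr1, Egr3, Atf3, Ier2, Nr4a1 and Dusp1. They were found by gene symbol in the deposited expression table, which gave 10 genes of the 18901 in the table, and the rule used no expression value. All 10 passed the filter of at least 10 counts over the 8 mice. RNA came from whole cheek tissue of 4 TBX20fl/fl;K14-Cre mice (knockout below) and 4 TBX20fl/fl littermates (control). In the knockout mice, Cre under the K14 promoter deletes part of the floxed Tbx20 gene, which encodes a T-box transcription factor, in keratinocytes, so other skin cells keep the gene. Both groups carried the floxed alleles, were female, were 7 weeks old and received 10 µg of BNP, the B-type natriuretic peptide, by intradermal injection into 1 cheek, with vehicle in the other. Scratching was recorded for 30 min, and the mice were euthanised 5 h after the recording. The study describes the sequenced tissue as the BNP-injected cheek, which the labels do not state, and no library of vehicle-injected or uninjected skin is included, so the values compare genotypes and not BNP with rest. The replicate numbers 1 to 4 of the labels name the mice of each group.

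Immediate early genes are transcribed within minutes of a stimulus from factors that are already present in the cell, without new protein synthesis, and their messages are short-lived. MAP kinase signalling through serum response factor with its ternary complex partners, and cAMP or calcium signalling through CREB, are the classical routes to their promoters. FOS and JUN proteins pair to form AP-1, which in skin takes part in keratinocyte differentiation, wound repair and inflammation. EGR1 and EGR3 are zinc finger activators, NR4A1 is an orphan nuclear receptor, ATF3 is a stress-induced factor of the ATF/CREB family, and DUSP1 is a phosphatase that inactivates MAP kinases.

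No member differed between genotypes in these 8 libraries after correction over all genes. Egr1 had the smallest p of the members in the main test on counts (edgeR, all 8 mice). Its mean was 28.1 FPKM (SD 12.7, n = 4) in knockout mice and 13.96 FPKM (SD 5.16, n = 4) in control mice. Egr3 and Jun also had higher means in knockout mice, and in both the ranges overlapped only at their edges. In FPKM, Fos, Fosb, Nr4a1 and Dusp1 were highest in the replicate 4 mouse of the knockout group and second highest in the replicate 4 control mouse. Dusp1 was not second highest there on the scale of normalized counts.

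The total count was 19260856 to 19880654 per knockout mouse and 16056282 to 19617762 per control mouse, at which 3 counts correspond to 0.151 to 0.187 CPM. A member's count ranged from 15, for Fosb in control mouse 2, to 2712, for Egr1 in knockout mouse 4. Tbx20 had 0 to 2 counts in knockout and 0 to 3 counts in control mice, a level at which whole tissue cannot show the deletion at this depth. Control mouse 2 stood apart: the median of its Spearman correlations over genes with each other mouse was 0.919 (0.974 to 0.9899 in the remaining 7 mice), and its normalization (TMM) factor was 0.735. Each of the 70 genes of 8 cell type marker lists was detected in each mouse. The lists' summed FPKM was 2952 to 4319 for keratinocytes, 11080 to 19800 for skeletal muscle, 222.8 to 1159 for neutrophils and 13.7 to 1638 for hair follicle over the 8 mice. In whole tissue, fewer cells of a type and less RNA per cell cannot be told apart.

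The FPKM scale corrects for transcript length and was not scaled by TMM. On it, Junb had the highest and Fosb the lowest level of the 10 genes in 8 of 8 mice. In control mice the means then ran from Dusp1 (25.6) over Ier2 (24.7), Atf3 (19.9), Jun (16.8), Egr1 (13.96), Egr3 (11.8) and Fos (7.08) to Nr4a1 (4.55). The control ranges of Dusp1 (22.48 to 28.31), Ier2 (21.82 to 26.89) and Atf3 (12.35 to 26.46) overlapped. Without control mouse 2 the mean of Ier2 (25.6) was above that of Dusp1 (24.9) and the mean of Jun (19.3) above that of Atf3 (17.7). The ranges of Jun (9.19 to 21.44), Egr1 (6.51 to 18.24) and Egr3 (5.34 to 17.03) overlapped as well, as did those of Jun and Atf3, although within each of the 4 control mice Jun was above Egr1 and Egr1 above Egr3.

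**Figure D1:**
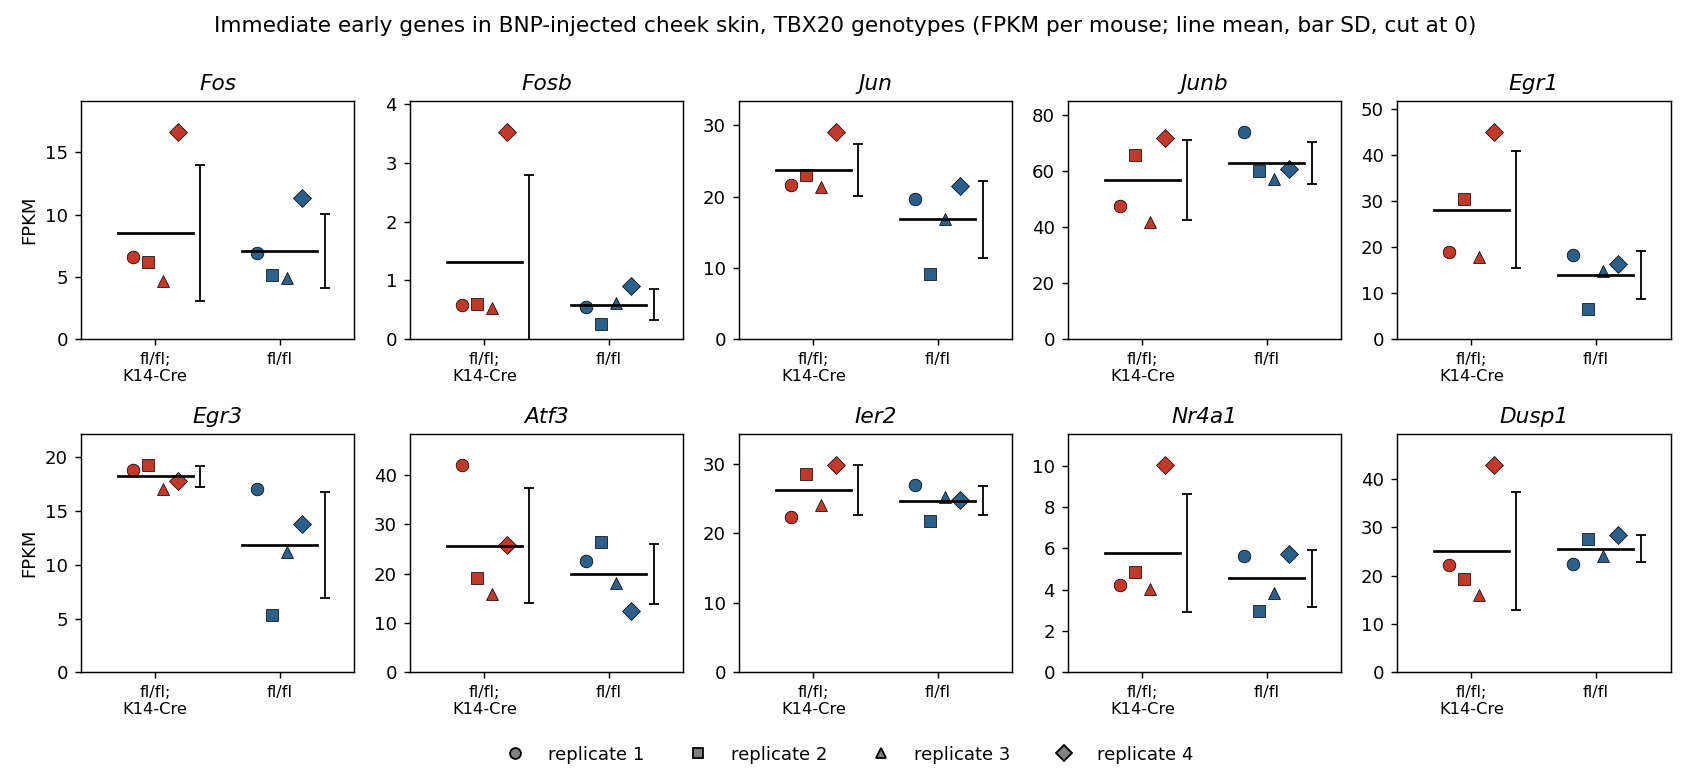
FPKM of each member (vertical axis, from 0, one scale per gene) in the 4 TBX20fl/fl;K14-Cre mice (red) and the 4 TBX20fl/fl mice (blue), with marker shape giving the replicate number, the horizontal line the group mean and the bar the SD, cut at 0 for Fosb. Knockout mouse 4 (red diamond) is highest for 7 of the 10 genes, and every pair of groups overlaps, Egr3 by 17.01 against 17.03 FPKM only.

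The first group of members are the subunits of AP-1. Fos (NCBI gene 14281, chr12:85473890-85477274 on GRCm38) encodes the FOS partner, which needs a JUN protein to bind DNA. It measured 6.58, 6.19, 4.64 and 16.67 FPKM in knockout mice 1 to 4 and 6.93, 5.14, 4.94 and 11.31 FPKM in control mice 1 to 4. Both replicate 4 mice stood above the other 6, and the other 3 mice of each group overlapped. The means of 8.52 FPKM (SD 5.50) and 7.08 FPKM (SD 2.96) did not differ beyond the spread (two-sided exact permutation test over 70 assignments, p = 0.714).

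Fosb (NCBI gene 14282, chr7:19302696-19310118) encodes a close relative of FOS. Its FPKM was 0.58, 0.60, 0.53 and 3.53 in knockout mice 1 to 4, and 0.54, 0.26, 0.62 and 0.91 in control mice 1 to 4. Knockout mouse 4 alone was far above the rest and set the group mean of 1.31 FPKM (SD 1.48) against 0.583 FPKM (SD 0.267). Without that mouse the knockout mean was 0.570 FPKM (SD 0.0361, n = 3). The log2 fold change of Fosb from counts was 1.05 (SE 0.653) with all mice and -0.14 without knockout mouse 4.

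Jun (NCBI gene 16476, chr4:95047647-95052222) encodes the partner that also forms AP-1 with itself. It measured 21.62, 23.03, 21.34 and 29.13 FPKM in knockout mice and 19.65, 9.19, 16.89 and 21.44 FPKM in control mice. Every knockout mouse exceeded its same-numbered control mouse, but knockout mouse 3 and control mouse 4 overlapped at 21.34 and 21.44 FPKM. The means of 23.8 FPKM (SD 3.64) and 16.8 FPKM (SD 5.40) gave p = 0.0571 in the exact permutation test, where the smallest value possible is 0.0286. Of the stretches of 50 bases in annotated Jun transcripts, 5.83% also occur in Junos, which overlaps Jun on the opposite strand, and the strandedness of the libraries is not given in the sources used here.

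Junb (NCBI gene 16477, chr8:84976909-84978748), whose product pairs with FOS proteins and restrains JUN at some promoters, went the other way in mean. Its FPKM was 47.35, 65.60, 41.75 and 71.52 in knockout mice and 73.90, 59.84, 56.92 and 60.55 in control mice. Knockout mice 1 and 3 lay below all controls, and knockout mice 2 and 4 lay inside the control range. The means were 56.6 FPKM (SD 14.3) and 62.8 FPKM (SD 7.56), with p = 0.486 in the exact permutation test. In Junb, 5.76% of the stretches are shared with the neighbouring gene Prdx2, whereas for the members other than Jun and Junb no stretch is shared.

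Among the zinc finger factors, Egr1 (NCBI gene 13653, on chromosome 18) measured 18.99, 30.54, 17.90 and 45.12 FPKM in knockout mice and 18.24, 6.51, 14.79 and 16.28 FPKM in control mice. Knockout mice 1, 2 and 4 lay above every control mouse, and knockout mouse 3 was just below control mouse 1. Each knockout mouse exceeded its same-numbered control mouse. The exact permutation test gave p = 0.0571. The log2 fold change from counts was 0.90 (SE 0.323), which passed an unadjusted but not an adjusted threshold of 0.05 in the quasi-likelihood test of edgeR (adjusted p = 0.498 by Benjamini-Hochberg). It was 0.58 (SE 0.281) without knockout mouse 4, where the unadjusted threshold was missed, and 0.72 (SE 0.298) without control mouse 2.

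Egr3 (NCBI gene 13655, chr14:70077317-70082613), which binds the same GC-rich sites as EGR1, was the most even member within the knockout group. It measured 18.77, 19.25, 17.01 and 17.80 FPKM in knockout mice, and 17.03, 5.34, 11.20 and 13.80 FPKM in control mice. The knockout mice thus spanned a narrow range, 3 of them above the highest control mouse and 1 just below it, with control mouse 2 the lowest of all, and each exceeded its same-numbered control mouse. The means were 18.2 FPKM (SD 1.00) and 11.8 FPKM (SD 4.95), with p = 0.0571 in the exact permutation test. Egr3 was not high in knockout mouse 4, which stood at 1.05 times the median of the other 7 mice.

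Atf3 (NCBI gene 11910, chr1:191170296-191183333) measured 41.95, 19.08, 15.92 and 25.75 FPKM in knockout mice and 22.61, 26.46, 18.11 and 12.35 FPKM in control mice. Its highest value was in knockout mouse 1 and its lowest in control mouse 4, where Fos and Dusp1 were second highest of the 8 in FPKM. The means of 25.7 FPKM (SD 11.6) and 19.9 FPKM (SD 6.07) gave p = 0.457 in the exact permutation test. Nr4a1 (NCBI gene 15370, chr15:101252918-101274795) measured 4.21, 4.84, 4.04 and 10.03 FPKM in knockout mice and 5.65, 2.98, 3.82 and 5.74 FPKM in control mice. Apart from knockout mouse 4, the knockout values lay inside the control range, and p was 0.571 in the exact permutation test.

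Ier2 (NCBI gene 15936, chr8:84661331-84662852), a small nuclear regulator of transcription, varied least, by 1.37 times from the lowest to the highest mouse. Its FPKM was 22.27, 28.52, 24.04 and 29.79 in knockout mice and 26.89, 21.82, 25.23 and 24.75 in control mice, with p = 0.514 in the exact permutation test. Dusp1 (NCBI gene 19252, chr17:26505591-26508472), the feedback inhibitor among the members, measured 22.21, 19.28, 15.94 and 42.79 FPKM in knockout mice and 22.48, 27.46, 23.99 and 28.31 FPKM in control mice. Knockout mice 1 to 3 lay below every control mouse and knockout mouse 4 above every control mouse. The group means were nearly equal at 25.1 FPKM (SD 12.1) and 25.6 FPKM (SD 2.78), with p = 0.943 in the exact permutation test. Without knockout mouse 4 the log2 fold change of Dusp1 was -0.60, which passed the unadjusted threshold in edgeR (adjusted p = 0.675), against -0.22 with all mice.

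Across all genes, edgeR called 0 of 17124 genes at an adjusted p under 0.05 (0%), and the smallest adjusted p was 0.498. The adjusted p of the members ranged from 0.498 to 0.874. At an unadjusted p under 0.05, 1 of the 10 members (Egr1) passed, against 8.36% of all genes, 2.45% higher and 5.91% lower in knockout mice. In an edgeR fit that blocked on replicate number, 3 members passed at an unadjusted p under 0.05, namely Egr1 (log2 fold change 0.84), Egr3 (0.58) and Jun (0.39), each with an adjusted p of 0.405, and the share of all genes that passed was 10.1%. The log2 fold change was above 0 for 7 of the 10 members, against 52.5% of all genes, and for 4 without knockout mouse 4. The median over the members was 0.18, against 0.026 over all genes tested, and it was -0.14 without knockout mouse 4 and -0.071 without both replicate 4 mice. No member had FPKM ranges that were disjoint between genotypes, against 5.19% of all genes higher and 1.87% lower in knockout mice. On the log2(FPKM + 1) scale the median over all genes shifted to 0.12 and Ier2 changed sign, from -0.084 to 0.075.

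**Figure D2:**
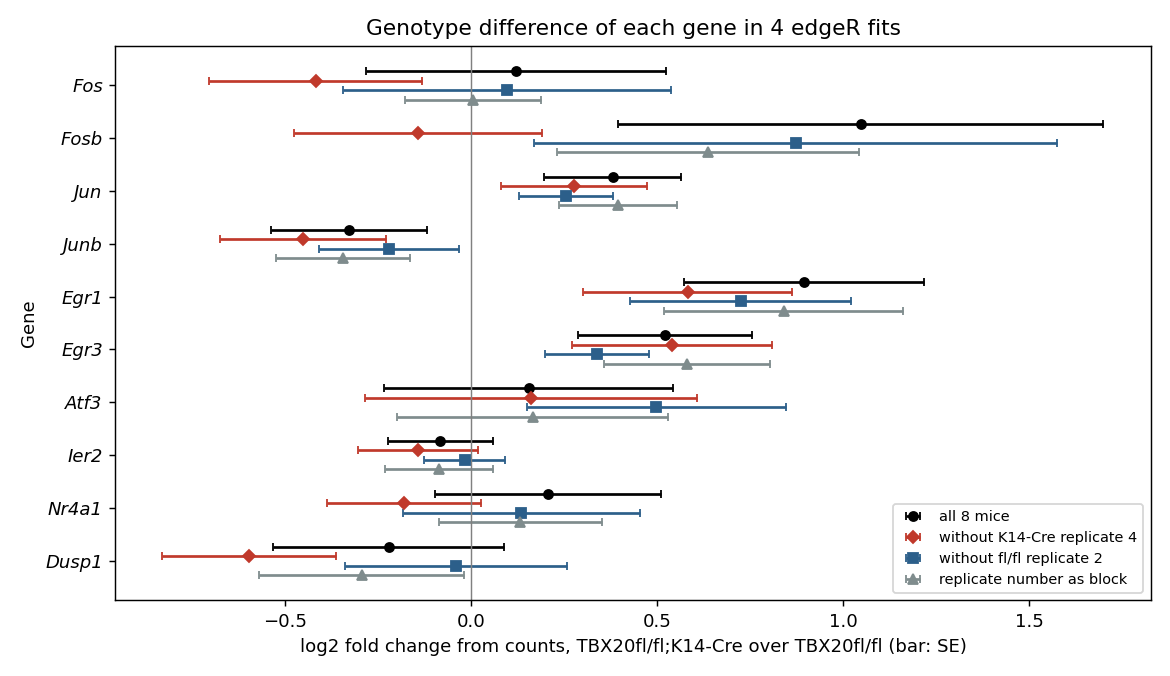
Log2 fold change of each member from counts (horizontal axis, knockout over control, bars are SE) in edgeR fits with all 8 mice (black), without knockout mouse 4 (red), without control mouse 2 (blue) and blocked on replicate number (grey). Egr1, Egr3, Jun and Atf3 stay right of 0 in the 4 fits shown, and Junb, Dusp1 and Ier2 stay left of it. Fos, Fosb and Nr4a1 cross 0 when knockout mouse 4 is left out.

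The members were not alike over the mice, and knockout mouse 4 was high for most of them. It had the highest FPKM of the 8 mice for 7 of the 10 members (Fos, Fosb, Jun, Egr1, Ier2, Nr4a1 and Dusp1), against 15.7% of all genes. The highest log2 CPM of Ier2 was instead in control mouse 2 (5.454, against 5.355 in knockout mouse 4). The FPKM in knockout mouse 4 was 6.09 times the median of the other 7 mice for Fosb, 2.69 times for Fos, 2.52 times for Egr1, 2.38 times for Nr4a1 and 1.90 times for Dusp1. These 5 members were at least 1.5 times that median, against 7.25% of all genes. For Junb, Ier2, Atf3 and Jun the ratio in knockout mouse 4 lay between 1.195 and 1.365. Fos, Junb and Dusp1 were lowest of the 8 in knockout mouse 3 (3 of the 10 members, against 7.01% of all genes).

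The control mouse that carries the same replicate number showed part of this pattern. Both replicate 4 mice lay above the other 6 in FPKM for 4 of the 10 members (Fos, Fosb, Nr4a1 and Dusp1), against 4.25% of all genes. On TMM-scaled log2 CPM this did not hold for Dusp1, which was at 6.147 in control mouse 2 and 5.687 in control mouse 4. Control mouse 4 exceeded the median of the other control mice 2.20 times for Fos, 1.69 times for Fosb, 1.503 times for Nr4a1 and 1.18 times for Dusp1, and was close to it for Egr1 (1.10 times). What the replicate number stands for is not given in the labels. Without both replicate 4 mice, the log2 fold change was -0.17 for Fos, 0.12 for Fosb, -0.095 for Nr4a1 and -0.60 for Dusp1. That of Egr1 was then 0.63 and that of Egr3 0.59.

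**Figure D3:**
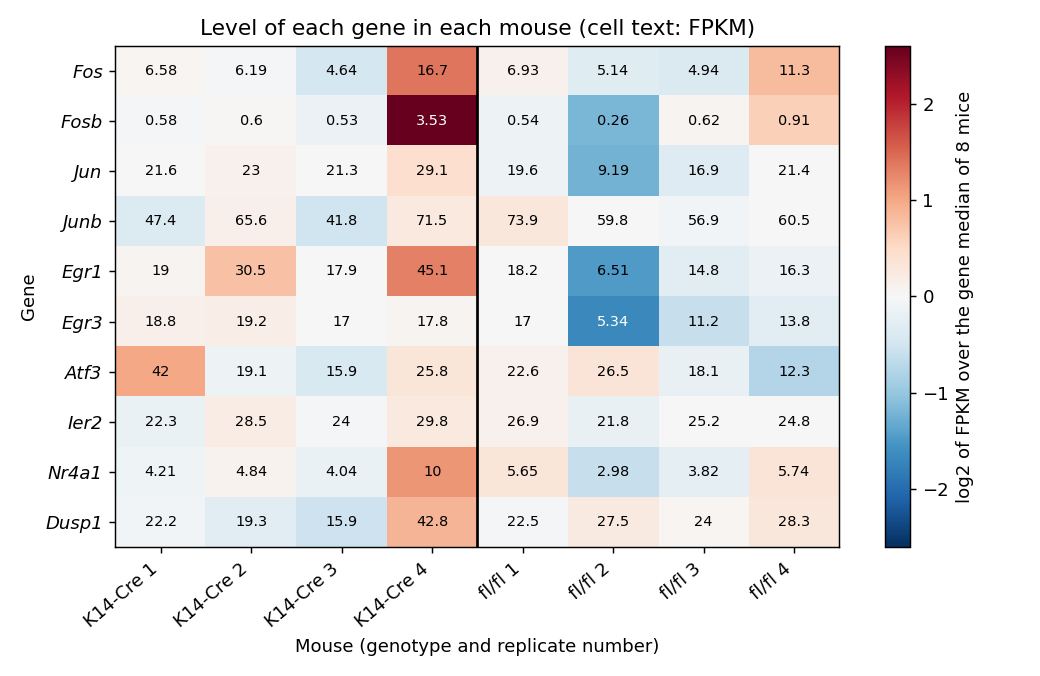
Level of each member (rows) in each mouse (columns), coloured by the log2 of FPKM over that gene's median of the 8 mice, with the FPKM printed in each cell and a black line between genotypes. The column of knockout mouse 4 is red for Fos (16.7), Fosb (3.53), Egr1 (45.1), Nr4a1 (10.0) and Dusp1 (42.8), and the column of control mouse 2 is blue for Fosb (0.26), Jun (9.19), Egr1 (6.51) and Egr3 (5.34).

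Of the 70 cell type marker genes, 6 were highest in FPKM in knockout mouse 4 and 3 (Pdpn, Fbln1 and Mmp9) had both replicate 4 mice highest. No marker list had its highest summed FPKM in knockout mouse 4. For neutrophils the sum was 429.9 FPKM in knockout mouse 4 and 1122 FPKM in control mouse 4, and for keratinocytes it was 4170 and 3901 FPKM. The neutrophil list did move with genotype, from 452.4 to 1159 FPKM in control mice and from 222.8 to 429.9 FPKM in knockout mice, with 10 of 10 genes lower and 7 at an unadjusted p under 0.05 in edgeR, against 5.91% of all genes. Hair follicle genes were higher in knockout mice for 10 of 10 genes, at 33.45 to 1638 FPKM against 13.7 to 103.9 FPKM, with knockout mouse 2 the highest and 8 genes at an unadjusted p under 0.05, against 2.45% of all genes. At that unadjusted threshold 2 of 8 fibroblast genes were higher, and 2 of 8 macrophage genes and 1 of 10 skeletal muscle genes lower, in knockout mice. No gene of these lists was called after adjustment, and their part in the members' values was not tested.

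In FPKM, control mouse 2 was the lowest of the 8 for 6 of the 10 members (Fosb, Jun, Egr1, Egr3, Ier2 and Nr4a1), against 53.1% of all genes. On TMM-scaled log2 CPM, Ier2 was instead highest in this mouse (5.454, against 5.355 in knockout mouse 4). Nr4a1 was then at 3.313 in it, above control mouse 3 (3.245) and knockout mouse 3 (3.248). The deviation of control mouse 2 from the median of the other mice, in log2 CPM, correlated with transcript length over 13298 genes (Spearman's rho -0.781). The same rho was 0.081, -0.549 and 0.059 in control mice 1, 3 and 4 and 0.283, -0.056, 0.465 and 0.455 in knockout mice 1 to 4, so the trend with length moved in part with genotype. The 5 longer members, at 2476 to 3894 bases, stood in it at 0.387 to 0.527 times the median of the other controls. The 5 shorter members, at 1473 to 2060 bases, stood at 0.742 to 1.46 times that median. Without control mouse 2 the log2 fold change was 0.34 for Egr3 and 0.25 for Jun, against 0.52 and 0.38 with all mice.

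**Figure D4:**
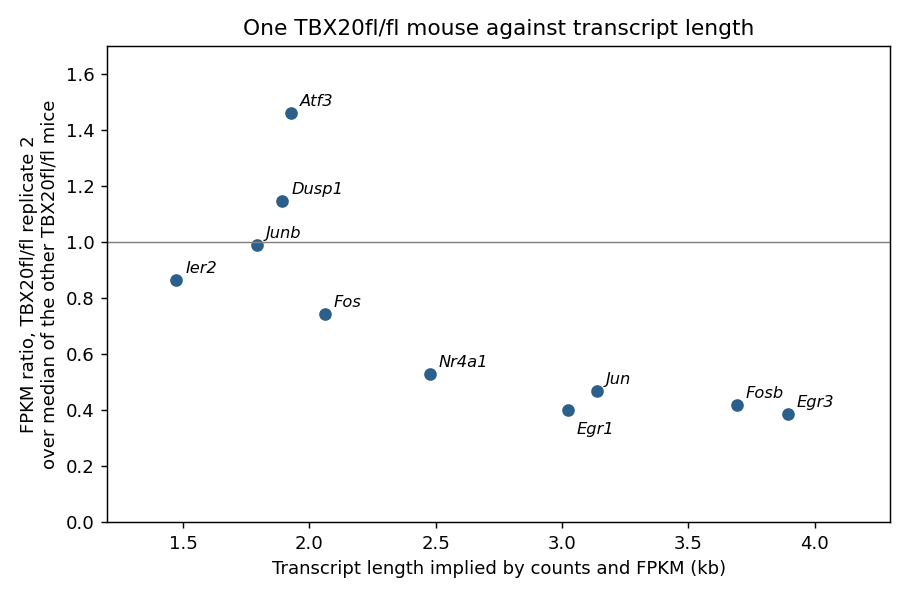
Ratio of FPKM in control mouse 2 to the median of the other control mice (vertical axis, from 0) against the transcript length implied by the deposited counts and FPKM (horizontal axis, kb), 1 point per member. The 5 members from Nr4a1 upward in length lie at 0.387 to 0.527, and the 5 shorter members at 0.742 to 1.46.

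When each mouse's trend with transcript length was taken out as an offset, the log2 fold change was 0.85 for Egr1, 0.38 for Egr3 and 0.32 for Jun, all past the unadjusted threshold in edgeR with an adjusted p of 0.534 each, where 8.62% of all genes passed. The spread within groups also differed by member. On the log2 CPM scale the SD over knockout mice was 1.28 for Fosb and 0.786 for Fos, against 0.0916 for Egr3, and the median over all genes was 0.204. Without knockout mouse 4 the SD of Fosb was 0.108 and that of Nr4a1 0.131, from 0.588 with it. In control mice the SD of Egr3 was 0.519 and the median over all genes 0.434, which was 0.196 without control mouse 2.

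The promoters of the 4 members with both replicate 4 mice highest in FPKM are shown because these members shared that pattern, Dusp1 on the FPKM scale only. The sequences are RefSeq promoter windows on GRCm38.p6 of 250 bases before the transcription start, without bases that GENCODE M21 annotates as exon (6 for Fosb and 47 for Dusp1). The start that RefSeq gives for Nr4a1 lies well inside the gene span printed above, and that for Fosb slightly inside it, so these windows belong to starts other than the outermost ones. Capitals mark matches, on either strand, to TGACG, the first 5 bases of the cAMP response element TGACGTCA, to GCGNGGGCG, the site bound by EGR factors, or to TATAAA, the TATA box.
Fos, chr12:85473640-85473889, plus strand: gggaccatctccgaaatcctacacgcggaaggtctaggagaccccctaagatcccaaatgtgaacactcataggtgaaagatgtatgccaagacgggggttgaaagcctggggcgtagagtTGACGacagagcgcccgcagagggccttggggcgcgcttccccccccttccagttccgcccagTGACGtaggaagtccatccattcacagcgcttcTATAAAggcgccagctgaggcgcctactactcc
Fosb, chr7:19310052-19310295, minus strand: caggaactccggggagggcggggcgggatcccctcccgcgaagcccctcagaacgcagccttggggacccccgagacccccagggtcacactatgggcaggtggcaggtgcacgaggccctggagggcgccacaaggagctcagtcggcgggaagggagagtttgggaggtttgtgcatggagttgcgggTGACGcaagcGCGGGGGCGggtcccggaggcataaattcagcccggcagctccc
Nr4a1, chr15:101266596-101266845, plus strand: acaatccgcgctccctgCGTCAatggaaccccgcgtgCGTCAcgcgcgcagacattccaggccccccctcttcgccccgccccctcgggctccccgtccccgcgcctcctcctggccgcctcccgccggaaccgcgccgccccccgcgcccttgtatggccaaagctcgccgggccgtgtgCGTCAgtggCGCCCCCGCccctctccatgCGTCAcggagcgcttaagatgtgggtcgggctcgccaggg
Dusp1, chr17:26508520-26508722, minus strand: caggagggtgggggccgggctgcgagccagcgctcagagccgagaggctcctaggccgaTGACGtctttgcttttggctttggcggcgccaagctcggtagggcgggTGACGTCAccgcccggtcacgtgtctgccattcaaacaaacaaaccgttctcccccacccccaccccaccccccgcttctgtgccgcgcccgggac

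Of the 10 members, 7 had a window in the table, and matches were counted in the full 250 bases, exon bases included. TGACG occurred in 6 of the 7 (all but Jun). It occurs in 17.8% of 32851 windows of that length, and in 26.7% of the 10574 windows with at least 58.4% G and C, the lowest content among the members. Fos held it at positions -129 to -125 and -66 to -62, counted back from the last base before the start, and its TATA box at -33 to -28. Nr4a1 held 4 copies of TGACG. Dusp1 held the full TGACGTCA, which contains TGACG, at -143 to -136, a motif in 1.55% of all windows and 2.68% of those rich in G and C. An EGR site occurred in Fosb and Nr4a1, against 4.7% of all windows and 13.1% of those rich in G and C. The AP-1 site TGANTCA and the CArG box of serum response factor were in none of the 7 windows, against 6.75% and 1.47% of all windows, which says only that these letters are not in this stretch. TATAAA was in 1 of the 7 windows (Fos), against 12.4% of all windows and 2.91% of those rich in G and C. Junb (TGACG at -106 to -102) and Atf3 (at -7 to -3) had 1 copy each, that of Atf3 within the 7 bases of its window that are annotated as exon. A match is a description of the letters and not a measurement of binding.

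Genes related to the members and other rapidly induced genes, 40 in all, were listed for comparison. Of these, 39 passed the filter on low counts, and Egr4, at 0.06 FPKM or less, did not. None was called after adjustment. At an unadjusted p under 0.05, Egr2 was higher in knockout mice and Ier3, Gadd45g, Gadd45b, Cebpd and Maff were lower (1 and 5 of 39, against 2.45% and 5.91% of all genes). Their median log2 fold change was 0.018, and 18 of the 39 were highest in knockout mouse 4, against 15.7% of all genes.

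Of the 3 EGR and NAB genes tested beside Egr1 and Egr3, Egr2 and Nab2 had a log2 fold change above 0 and Nab1 did not. Egr2, a further zinc finger factor of the family, measured 16.29, 19.97, 16.54 and 19.62 FPKM in knockout mice and 14.78, 7.21, 12.33 and 14.42 FPKM in control mice, without overlap. Its log2 fold change was 0.44 (SE 0.157, edgeR adjusted p = 0.498), and the exact permutation test gave the smallest possible p of 0.0286. Nab2, a corepressor of EGR proteins and itself an EGR target, measured 16.36, 20.07, 15.34 and 16.60 FPKM in knockout mice and 14.54, 9.45, 14.04 and 12.48 FPKM in control mice, again without overlap (log2 fold change 0.29, edgeR adjusted p = 0.498). Of all genes, 5.19% were higher in knockout mice without overlap in FPKM. Control mouse 2 had the lowest FPKM for both Egr2 and Nab2, as for 53.1% of all genes. Nab1, the related corepressor, was at 24.90 to 28.05 FPKM in knockout and 18.10 to 28.38 FPKM in control mice (log2 fold change -0.099).

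Among the phosphatases that act on MAP kinases, Dusp4 alone did not overlap between the groups, against 5.19% of all genes higher without overlap. It was at 4.85 to 5.46 FPKM in knockout and 0.92 to 3.90 FPKM in control mice (log2 fold change 0.61, edgeR adjusted p = 0.498). The difference of 0.61 includes the low value of control mouse 2, without which the controls were 3.81 to 3.90 FPKM. Dusp6, an ERK-specific phosphatase, measured 11.08, 22.41, 12.80 and 17.63 FPKM in knockout mice and 10.16, 6.71, 10.27 and 14.48 FPKM in control mice (log2 fold change 0.48). The log2 fold change was 0.22 for Dusp5, 0.18 for Dusp10, 0.17 for Dusp16 and -0.36 for Dusp2.

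The other AP-1 subunits were not called either (adjusted p of 0.524 to 0.934 in edgeR). The log2 fold change was 0.33 (SE 0.253) for Fosl2, -0.022 (SE 0.134) for Jund and -0.46 (SE 0.516) for Fosl1. Of the receptors related to Nr4a1, Nr4a2 stood at 0.33 (SE 0.213) and Nr4a3 at -0.091 (SE 0.177). Fosl1 was the only one of the 39 with both replicate 4 mice highest in FPKM.

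Of the 25 other rapidly induced genes, 13 had a log2 fold change below 0, and 5 of these passed the unadjusted threshold. Their log2 fold changes were -0.73 for Ier3, which promotes survival, -0.73 for Cebpd, a C/EBP factor of the acute phase response, -0.57 for Gadd45b and -0.52 for Gadd45g, both growth arrest and DNA damage genes, and -0.35 for Maff, a small MAF factor. These 5 had an adjusted p of 0.498 in edgeR. Maff alone of these did not overlap between the groups, at 9.58 to 11.18 FPKM against 11.22 to 12.74 FPKM. Of all genes, 1.87% were lower in knockout mice without overlap.

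Of the 22 kinases and transcription factors upstream of the members, such as Srf, Creb1 and the ERK kinases, 0 were called after adjustment, and Crem was the single gene at an unadjusted p under 0.05. Crem, a cAMP-responsive regulator that also yields repressor isoforms, was at 5.74 to 7.46 FPKM in knockout and 6.40 to 12.29 FPKM in control mice (log2 fold change -0.72, SE 0.280, edgeR adjusted p = 0.498). The median of the list was 0.14, and 8 of the 22 were highest in knockout mouse 4, against 15.7% of all genes. Mrtfb, a coactivator of serum response factor (4.49 to 5.23 against 1.08 to 4.28 FPKM), and Elk1, one of its ternary complex partners (5.66 to 6.02 against 3.13 to 5.56 FPKM), named after their values were seen, were higher in knockout mice without overlap, with a log2 fold change of 0.59 (adjusted p = 0.498 in edgeR) and 0.15 (adjusted p = 0.561), against 5.19% of all genes without overlap in that direction.

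**Figure D5:**
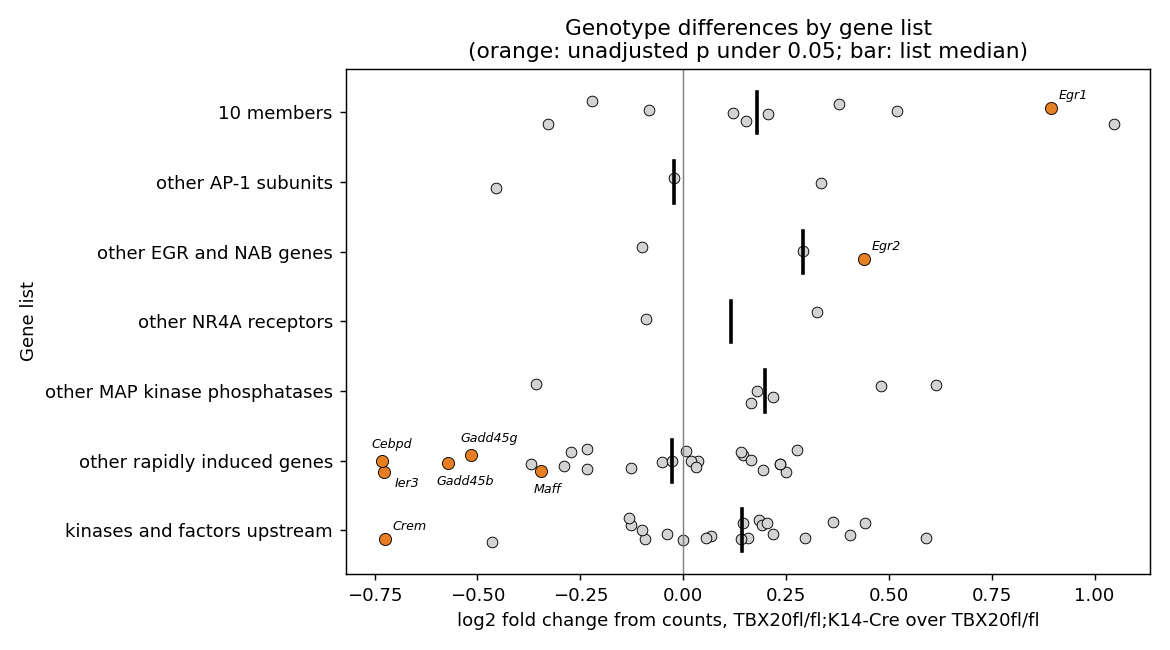
Log2 fold change from counts (horizontal axis, knockout over control) of each gene tested in 7 gene lists (vertical axis), with orange for an unadjusted edgeR p under 0.05 and the black bar for the list's median. Orange points are Egr1 among the 10 members, Egr2, 5 rapidly induced genes below 0 and Crem, and no gene passes the adjusted threshold.

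The genes whose log2 CPM followed the mean of the 10 members most closely over the 8 mice, of 13288 compared, were Leo1 (Pearson's r 0.954), Ccn1 (0.931), Klhl38 (0.914), Nop2 (0.905) and Angpt4 (0.856), each correlation over points that share libraries and depth. Ccn1, a matricellular immediate early gene, is in the list of other rapidly induced genes. Without knockout mouse 4 the r was 0.691 for Leo1, 0.603 for Ccn1, 0.864 for Klhl38, 0.570 for Nop2 and 0.624 for Angpt4. The member mean itself was 4.92, 4.92, 4.59 and 5.66 log2 CPM in knockout mice 1 to 4 and 4.93, 4.74, 4.70 and 4.93 log2 CPM in control mice, so that knockout mouse 4 was highest and knockout mouse 3 lowest.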

How the data were processed

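The authors sequenced cheek RNA of 8 mice as single-end reads of 50 bases, filtered them with SOAPnuke and aligned them with HISAT. The quantifier is not given in the sources used here. The deposited values used were estimated counts per gene (not normalized, 69% of those above 0 not whole) and FPKM, which the authors made with Dr. Tom. TPM and size-factor normalized counts (a signal), both made by the authors, were not used. A further 91 columns deposited by the authors hold group means and the log2 fold changes, p-values and q-values of their own comparisons, and none was used. Coordinates come from that table (GRCm38).

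Counts were rounded, genes reaching 10 counts summed over the 8 mice kept (17124), scaled by TMM and compared by edgeR's quasi-likelihood test (edgeR 4.0.16, R 4.3.3) with Benjamini-Hochberg adjustment over all genes and a threshold of 0.05. Signed differences are knockout minus control. FPKM was compared by two-sided exact permutation tests over 70 assignments and, as an alternative, by limma 3.58.1 on log2(FPKM + 1). DESeq2 1.42.0 was another alternative. The floor of 3 counts covers counting error only, whereas SDs and SEs hold the variation between mice. On simulated counts with 200 genes changed by 2 on the log2 scale, edgeR recovered 200 with 9 false calls among 16986 genes, edgeR with the block 199 with 7, DESeq2 200 with 31, and limma 200 with 10 among 16658 genes. The changed genes had a mean count of at least 50, limma was given CPM, and no length trend or single high mouse was simulated. A change of 2 exceeds the log2 fold change of every member, so these counts do not measure power for the members.

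Each library is 1 mouse. Same-numbered mice of the groups deviated together (correlation of 0.160 to 0.405 in 4 pairs, over 13298 genes, against -0.518 to 0.426 in the 12 other pairs), so the number was also fitted as a block. The numbers come from the labels, and the mice are different animals.

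The members, the gene lists and the comparisons were chosen with earlier results of these data known. Genes named by rule beside the members are those related to the AP-1, EGR, NR4A and phosphatase members, those of the other lists with an unadjusted p under 0.05, and the 5 most like the members' mean. Mrtfb and Elk1 were named after their values were seen. Pdpn, Fbln1 and Mmp9 were named because both replicate 4 mice were highest for them in FPKM. Alternatives that left out both replicate 4 mice, or ran DESeq2 without its filters, were chosen after seeing the data. Ccn1 and Ccn2 were listed as Cyr61 and Ctgf, and Mrtfa and Mrtfb as Mkl1 and Mkl2. The promoters of Egr1, Egr3 and Ier2 were not analysed here.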

Additional observations from a re-analysis of the deposited data

Results flagged for a closer look

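A value in 1 mouse was marked when its gap to the nearest of the other 3 mice of its group took a larger share of the group's range than Dixon's critical value for 4 samples. The values examined were the FPKM of the members and of the other genes named by rule, the TMM factor, the total count and the members' mean log2 CPM, in each genotype, and no other gene of the lists. Of these 66 groups of 4, 8 were marked, where chance marks about 3.3. Among the members, 3 were marked, all in knockout mouse 4: Fos at 16.67 FPKM (the other knockout mice 4.64 to 6.58), Fosb at 3.53 FPKM (0.53 to 0.60) and Nr4a1 at 10.03 FPKM (4.04 to 4.84). Crem was marked in the same mouse at 7.46 FPKM, against 5.74 to 5.95. Dusp2 was marked in knockout mouse 2 at 4.48 FPKM, against 1.19 to 1.55.

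Control mouse 2 was marked for low values of Nab1 (18.10 FPKM, against 27.85 to 28.38) and Dusp4 (0.92 FPKM, against 3.81 to 3.90), and for its TMM factor of 0.735, against 1.01 to 1.04. The sources of these values were not tested.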

How the results depend on the processing

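Fosb had 15 to 65 counts in control mice, and the SE of its log2 fold change was 0.653 with all mice and 0.333 without knockout mouse 4. The number of members with an adjusted p under 0.05 was 0 under each alternative run, and the smallest adjusted p of a member was 0.314 (Egr1, DESeq2). Over all genes, DESeq2's Wald test called 10 genes and 11 without its filters, none a member, against 0 in each edgeR alternative. At an unadjusted p under 0.05, limma on FPKM passed 2 members (Egr1 and Egr3) on log2(FPKM + 1), on log2(FPKM + 0.1) and with no filter, and 3 with the replicate block, against 0 by the exact test. Over all genes these limma fits passed 6.55%, 5.8%, 6.21% and 10.7%. In edgeR the replicate block passed 3 members, as did removing the length trend, with the block or without it, and DESeq2 passed 2. Over all genes the same fits passed 1723 (block), 1476 (length trend), 1811 (both) and 1954 (DESeq2), against 1431. Apart from these counts, the block changed no call. Of 210 log2 fold changes under alternatives, 195 kept their sign. Jun, Egr1 and Egr3 stayed above 0 and Junb and Dusp1 below 0 in each alternative. Leaving out 1 mouse at a time gave -0.42 to 0.37 for Fos, -0.14 to 1.31 for Fosb, -0.21 to 0.50 for Atf3, -0.18 to 0.34 for Nr4a1 and -0.14 to 0.34 for the members' median, with the lowest value without knockout mouse 4, except for Atf3, whose lowest was without knockout mouse 1. Fos was also below 0 without control mouse 3 (-0.025) and Atf3 without control mouse 4 (-0.053). Without both replicate 4 mice, Fos was at -0.17, Atf3 at -0.047 and Nr4a1 at -0.095. Ier2 turned positive with the length trend removed (0.17, and 0.18 with the block) and on the FPKM scale (0.075 on log2(FPKM + 1), with no filter or with the block, and 0.078 on log2(FPKM + 0.1)). DESeq2 gave no p for Fosb under its default Cook's distance filter. The cause of these changes was not tested.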
